A study of Mus musculus with 14 samples.

Results

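The genes described here are those named after proteins of the small (40S) subunit of the cytosolic ribosome. They were chosen by name as the rows of the count tables whose symbol was Rpsa or began with Rps and a digit and whose gene was annotated as protein-coding, leaving out the Rps6k kinases and copies with -ps in the name. The rule gave 35 of 55291 rows and used no measured value. Of these, 34 passed the filter on low counts, beside 22150 genes tested in all. The remaining gene, Rps23rg1, had between 0 and 14 counts per library. The 34 tested genes include Rps19bp1, which does not encode a ribosomal protein. Fau, which encodes the small subunit protein eS30, is left out by its symbol.

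The series measured polyadenylated RNA from single dentate gyri that had been cut with a scalpel from mouse entorhino-hippocampal slice cultures. The dentate gyrus is the part of the hippocampal formation that receives the entorhinal input. Slices were taken on postnatal day 4 or 5, kept for 18 days or longer, and 1 dentate gyrus was then lysed for each library. The first group held 8 APPko libraries from APP-deficient (APP-/-) animals, and the second held 6 wildtype libraries from C57BL/6J (APP+/+) animals. The labels name no treatment. The deficiency was that of the animals and was not induced in culture. The labels do not tie cultures to animals, and the p-values rest on the spread between single cultures.

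The small subunit binds mRNA, scans it for the start codon and reads each codon against a tRNA. Its head and its body with the platform turn against each other during this work, and its proteins sit around a single ribosomal RNA. Ribosomal protein genes are among the most transcribed genes of any cell, their mRNAs are translated in step with growth signals through the kinase complex mTORC1, and a gene dosage deficit in several of them causes Diamond-Blackfan anaemia in people. Their mRNAs classically begin at a cytosine inside a run of pyrimidines, the terminal oligopyrimidine (TOP) tract, through which mTORC1 acts on their translation.

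The start regions of 9 of these genes are printed to set the annotated starts beside this description. They are the 6 genes that passed the test below and 3 of the short genes whose levels varied widely between libraries. Each line runs 5′ to 3′ on the gene's strand, from 30 bases before the RefSeq start to 20 bases from the start on (build GRCm38.p6). Capitals mark the longest run of C and T that touches the 20 bases on either side of the start (the first of several equal ones), where it is 5 bases or more. Runs farther upstream are not marked. A marked run crosses the start for Rps18, Rps27 and Rps21 only. The other marked runs lie before or after the start and are not TOP tracts as described above. RefSeq's table held a promoter for 27 of the 35 genes. Where it listed several starts, as for Rps19 and Rps21, the one farthest 5′ is shown.
Rps19: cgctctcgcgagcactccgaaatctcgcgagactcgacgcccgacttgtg
Rps16: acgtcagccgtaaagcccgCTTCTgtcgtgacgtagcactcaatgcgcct
Rps18: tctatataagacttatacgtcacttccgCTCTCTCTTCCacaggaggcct
Rps13: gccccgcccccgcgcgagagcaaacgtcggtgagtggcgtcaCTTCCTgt
Rps23: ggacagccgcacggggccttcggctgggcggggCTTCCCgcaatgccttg
Rps7: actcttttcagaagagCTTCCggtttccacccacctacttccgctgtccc
Rps27: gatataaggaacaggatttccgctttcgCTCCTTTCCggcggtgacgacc
Rps21: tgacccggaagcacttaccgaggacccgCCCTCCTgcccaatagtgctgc
Rps28: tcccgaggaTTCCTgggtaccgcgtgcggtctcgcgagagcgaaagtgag

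The Rps18 window lies at chr17:33955646-33955695 on the minus strand and holds a run of 11 pyrimidines across the start. The Rps27 window, at chr3:90213629-90213678 on the minus strand, holds a run of 9, and the Rps21 window, at chr2:180257349-180257398 on the plus strand, a run of 7. In the Rps19 window, at chr7:24884562-24884611 on the plus strand, no run this near the start reached 5 bases. A run of at least 8 C or T that touched the 20 bases on either side of the start was found for 12 of the 27 genes (44.4%), and for 24.2% of the 13700 other tested genes with a promoter in the table. The letters CCGGAA, counted on either strand over the 300 bases of each promoter, occurred in 15 of the 27 (55.6%) and in 25.7% of those other genes. These are matches of letters, not measured start sites or bound factors.

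Library totals lay between 16686909 and 31031126 counts. App, the targeted gene, had 182 to 231 TMM-scaled CPM (library-size normalised counts) in APPko libraries and 679 to 964 CPM in wildtype libraries, so every library matched its label (log2 fold change -1.92, edgeR adjusted p = 9.2e-09). Wildtype libraries 2 and 3 stood apart, with TMM scaling factors of 0.852 and 0.847 beside 0.976 to 1.09 in the other 12. The table headers end in the letter f for 7 APPko and 3 wildtype libraries and in m for 1 APPko and 3 wildtype libraries, so letter and genotype were unevenly mixed. Markers of dentate granule cells summed to between 414 and 745 CPM in APPko libraries and between 536 and 1070 CPM in wildtype libraries, and none of the 7 was absent. The 2 erythroid markers stayed under 1 CPM everywhere.

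In APPko dentate gyri 6 of the 34 tested small subunit genes were higher than in wildtype at an adjusted p under 0.05, and none was lower. The 6 were Rps19, Rps16, Rps18, Rps13, Rps23 and Rps7, with fold changes from 1.35 to 1.67. They make up 17.6% of the tested members, where 0.944% of all 22150 tested genes were higher and 1.41% lower (2.35% in either direction). All 34 log2 changes were positive, against 48.3% of all genes, and their median was 0.33 (range 0.020 to 0.74), against -0.013 over all genes. At an unadjusted p under 0.05 the quasi-likelihood test of edgeR gave 19 members higher and none lower, against 9.07% of all genes higher and 11.4% lower. DESeq2 called 16 members higher and none lower after adjustment, against 3.38% of all genes higher and 4.75% lower. Without wildtype libraries 2 and 3 no member passed with edgeR, although 18 had an unadjusted p under 0.05 and the median of the 34 was 0.23. In that fit 19 genes of the whole table (0.08%) were higher and 16 lower, against 209 and 312 with all 14 libraries, and 6.02% were higher at an unadjusted p under 0.05.

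**Figure D1:**
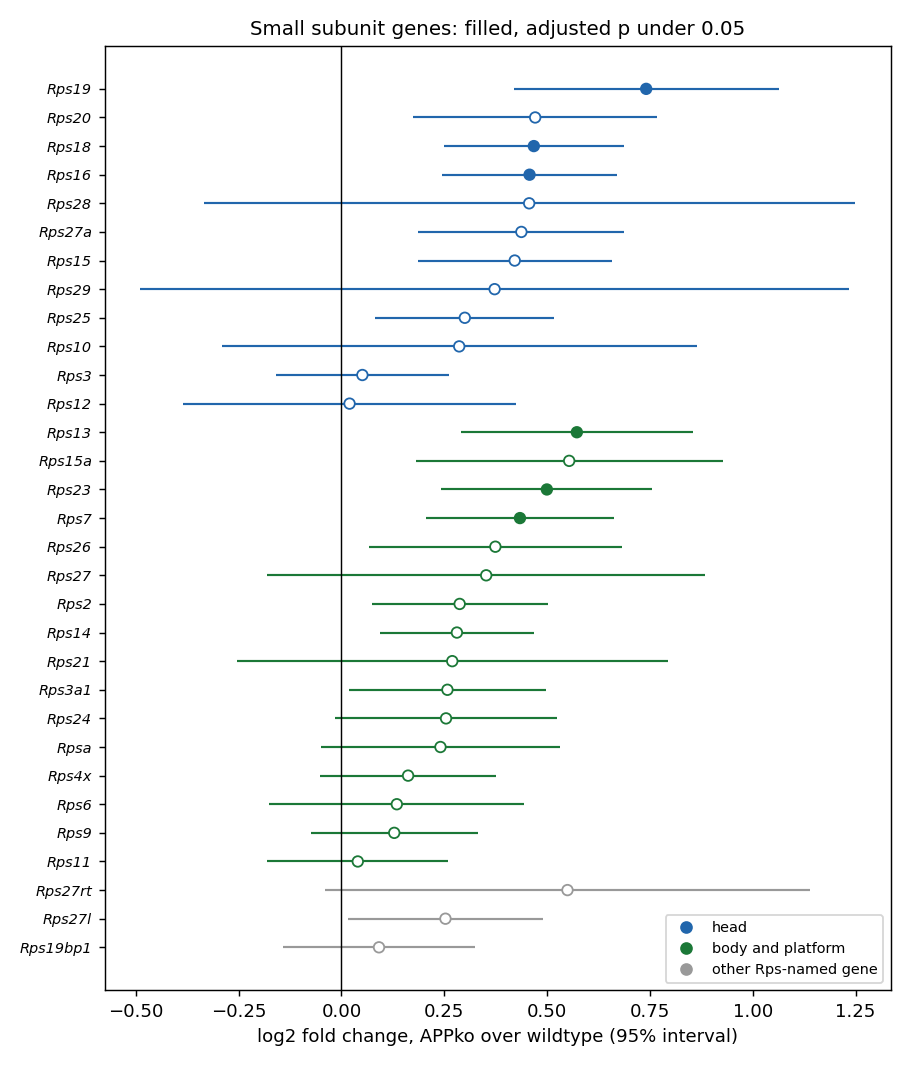
Log2 fold change of 31 of the 34 tested small subunit genes, APPko over wildtype (x axis), with 95% intervals from edgeR, grouped by position in the subunit. Filled points mark the 6 genes with an adjusted p under 0.05. All points lie to the right of 0, and the interval excludes 0 for 16 of the genes drawn.

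The head of the subunit was represented by 14 tested genes, of which 3 were higher and none lower (median log2 change 0.43). Without wildtype libraries 2 and 3 none of the 14 passed and their median was 0.27. Rps19, a head protein whose human gene is the one most often mutated in Diamond-Blackfan anaemia, showed the largest log2 change. Its level was 772, 884 and 1003 CPM (lowest, median and highest of 8) in APPko libraries, against 311, 537 and 700 CPM (of 6) in wildtype libraries. Every APPko library thus lay above every wildtype library. The means were 890 ± 84.0 CPM in APPko and 533 ± 152 CPM in wildtype (SD, n = 8 and 6), a log2 change of 0.74 ± 0.15 (SE; edgeR adjusted p = 0.026).

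Rps16, whose tail reaches towards the tRNA in the decoding region, had 306, 337 and 404 CPM (lowest, median, highest) in APPko libraries and 200, 258 and 277 CPM in wildtype libraries. Its groups did not overlap either, and its log2 change was 0.46 ± 0.10 (SE; edgeR adjusted p = 0.031). Rps18, at the side of the head that faces the large subunit, had 605, 630 and 742 CPM in APPko libraries and 348, 501 and 515 CPM in wildtype libraries. The lowest wildtype value was that of library 2 and all APPko values lay above the highest wildtype one, with a log2 change of 0.47 ± 0.10 (SE; edgeR adjusted p = 0.031). Rps19, Rps16 and Rps18 were the 3 members (8.82% of 34) for which every APPko library was above every wildtype library, against 0.506% of all tested genes. No member had every APPko library below every wildtype library, against 0.609% of all tested genes.

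Of the other head genes, the nearest to the threshold was Rps15, with 456 ± 39.0 CPM in APPko and 340 ± 60.4 CPM in wildtype (SD, n = 8 and 6; log2 change 0.42, edgeR adjusted p = 0.054). Rps27a, which is made as a fusion with ubiquitin, had 546 ± 61.2 CPM in APPko and 403 ± 74.0 CPM in wildtype (log2 change 0.44, edgeR adjusted p = 0.058). At the other end stood Rps12, a protein of the beak. Rps12 had 141, 176 and 193 CPM (lowest, median, highest) in APPko libraries and 111, 137 and 306 CPM in wildtype libraries, and its log2 change of 0.020 had a 95% interval from -0.38 to 0.42. Its highest value came from wildtype library 1, so its wildtype range enclosed the whole APPko range. Rps3, which lines the mRNA entry channel, had 704 ± 44.4 CPM in APPko and 680 ± 94.1 CPM in wildtype, with a log2 change of 0.051 (95% interval -0.16 to 0.26).

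Among the genes of the body and platform, 3 of 17 were higher and none lower (median log2 change 0.28). Without wildtype libraries 2 and 3 none of the 17 passed and their median was 0.23. Rps13, which takes part in a bridge to the large subunit, had 250, 301 and 351 CPM (lowest, median, highest) in APPko libraries and 146, 208 and 258 CPM in wildtype libraries. The top wildtype value, from library 1, overlapped the lowest APPko values. Its log2 change was 0.57 ± 0.13 (SE; edgeR adjusted p = 0.036).

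Rps23, a protein of the decoding centre that bears on reading accuracy, had 348, 410 and 473 CPM in APPko libraries and 226, 287 and 378 CPM in wildtype libraries. Again wildtype library 1 alone reached into the APPko range, and the log2 change was 0.50 ± 0.12 (SE; edgeR adjusted p = 0.043). Rps7, which can also bind the p53 ligase MDM2, had 583, 726 and 910 CPM in APPko libraries and 476, 523 and 594 CPM in wildtype libraries. Its groups met at the edge only, where APPko library 3 was just below wildtype library 1, and its log2 change was 0.43 ± 0.11 (SE; edgeR adjusted p = 0.045).

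**Figure D2:**
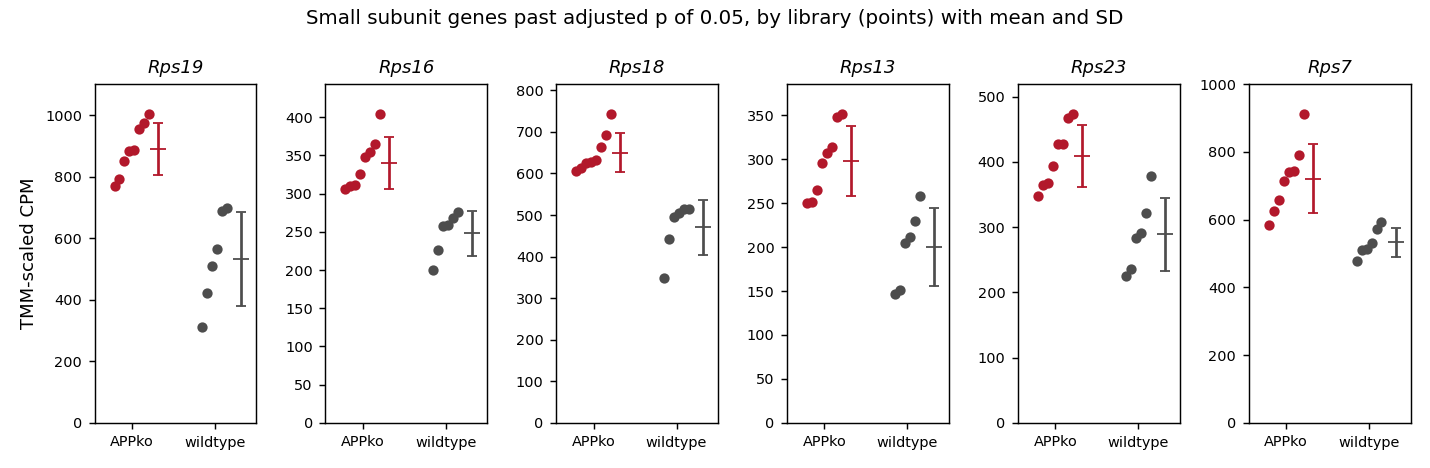
TMM-scaled CPM (y axis, from 0) of the 6 genes with an adjusted p under 0.05, for 8 APPko and 6 wildtype libraries (points, sorted within a group), with mean and SD beside them. For Rps19, Rps16 and Rps18 all APPko points lie above all wildtype points.

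The other 14 genes of the body and platform did not pass. Rps14, whose loss from 1 chromosome contributes to the anaemia of the human 5q deletion, had the highest CPM of all members, with 1292 ± 63.1 in APPko and 1063 ± 75.8 in wildtype (log2 change 0.28, edgeR adjusted p = 0.089). Rps6, the substrate of the S6 kinases, had 555 ± 93.2 CPM in APPko and 505 ± 130 CPM in wildtype, with a log2 change of 0.13 (95% interval -0.18 to 0.44). The X-linked Rps4x had 438, 474 and 627 CPM in APPko libraries and 398, 431 and 491 CPM in wildtype libraries (log2 change 0.16, edgeR adjusted p = 0.39). Rps3a1, the mouse counterpart of human RPS3A, had 431, 516 and 644 CPM in APPko libraries and 382, 414 and 560 CPM in wildtype libraries (log2 change 0.26, edgeR adjusted p = 0.21). Both of these genes were highest in APPko library 8, and their groups overlapped. Of the 11 tested members whose human orthologue is mutated in Diamond-Blackfan anaemia, 2 were higher (Rps19 and Rps7) and none lower. Over all 34 tested members 6 were higher. The median log2 change of the 11 was 0.43, beside 0.33 over the 34. Without wildtype libraries 2 and 3 these medians were 0.20 and 0.23, and no member passed.

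The spread between libraries of the same genotype was not alike among the members. The within-genotype SD of log2(CPM + 0.5) was largest for Rps29 (0.89) and Rps28 (0.83), the proteins with the shortest coding sequences of 168 and 207 bases. Rps29, a zinc-binding protein of the head, had 115, 264 and 493 CPM (lowest, median, highest) in APPko libraries and 85.1, 208 and 500 CPM in wildtype libraries. The highest wildtype library was thus 5.88 times the lowest, and the highest APPko library 4.30 times the lowest. Both genotypes covered nearly the same range, and the log2 change of 0.37 had a 95% interval from -0.49 to 1.23. Rps28 had 64.8, 139 and 243 CPM in APPko libraries and 38.3, 112 and 219 CPM in wildtype libraries, with a log2 change of 0.46 and an interval from -0.34 to 1.25. Rps14 varied little, with an SD of 0.084.

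Set out by coding length, the 6 tested members under 300 bases (Rps29, Rps28, Rps21, Rps27, Rps27l and Rps27rt) had a median SD of 0.56 (range 0.19 to 0.89). The other 27, leaving out Rps10, had a median of 0.20 (range 0.082 to 0.40). The boundary of 300 bases was chosen after the values were seen, and these figures are a description. Pearson's r between log2 coding length and SD was -0.72 over 33 members that share the same 14 libraries. Over other genes of at least 10 CPM outside the ribosomal protein families, the median SD was 0.27 for 236 genes under 300 bases and 0.26 for 2345 genes of 300 to 900 bases. Genes of the large subunit had a median SD of 0.49 for the 5 under 300 bases and 0.20 for the 44 longer ones. The minimum of 10 CPM was not applied to the ribosomal protein genes of either subunit. Rps27rt, for example, had means of 6.99 CPM in APPko and 4.80 CPM in wildtype.

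The short genes followed the same libraries. All 6 were highest among wildtype libraries in library 1, and all 6 were lowest among APPko libraries in library 8. In wildtype, 5 of the 6 were lowest in library 2 or 3. Over the 33 members, wildtype library 1 was the highest of its group for 24 and library 2 or 3 the lowest for 21. APPko library 8 was the lowest of its group for 13 members but the highest for 8, among them the longer Rps7, Rps4x and Rps3a1. Without wildtype libraries 2 and 3, the log2 changes of Rps29 and Rps21 were -0.038 and -0.034, while that of Rps19 was 0.54 (edgeR adjusted p = 0.062). The part of library quality in these patterns was not tested.

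**Figure D3:**
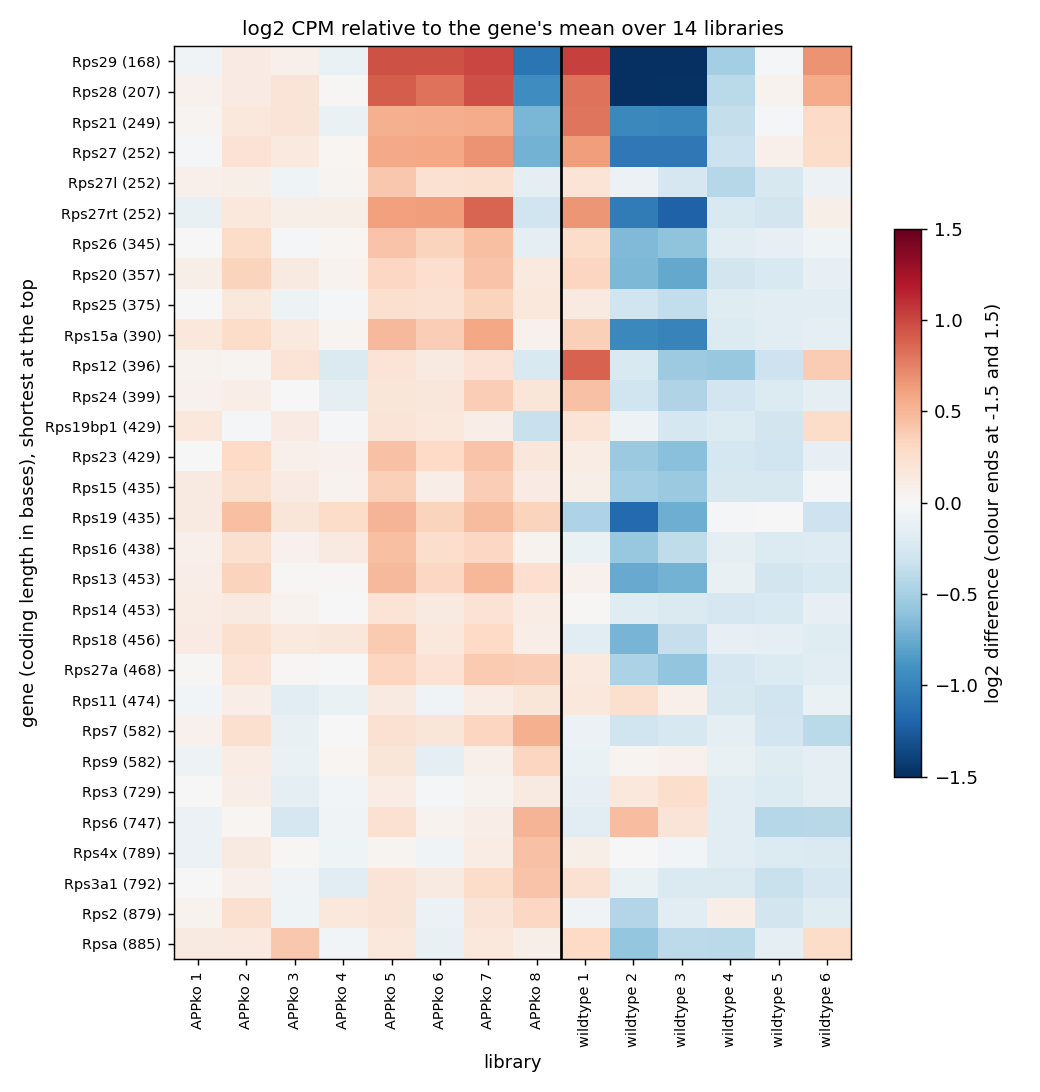
Log2 CPM of 30 small subunit genes (rows, shortest coding sequence at the top) in 8 APPko and 6 wildtype libraries (columns), each relative to the gene's mean over the 14 libraries. The 4 shortest genes are red in wildtype library 1 and APPko libraries 5 to 7, and blue in wildtype libraries 2 and 3 and APPko library 8.

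**Figure D4:**
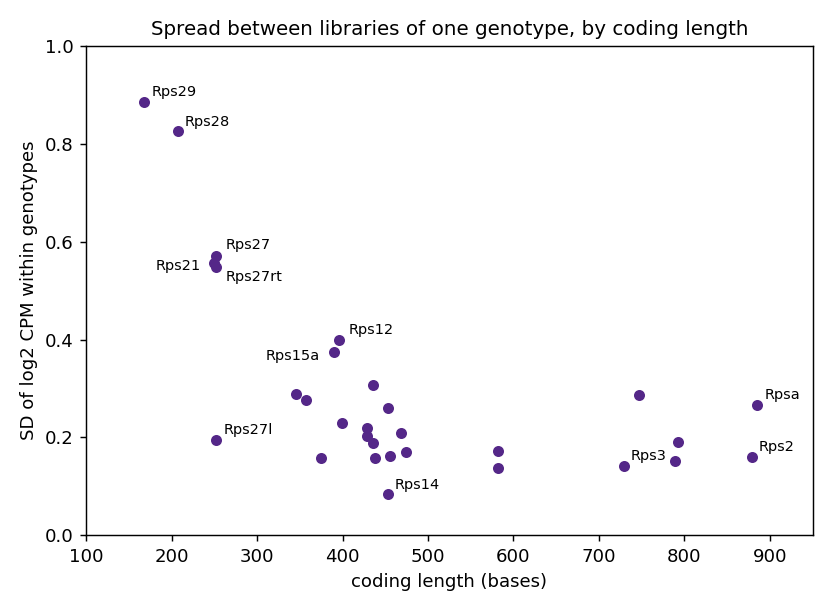
Within-genotype SD of log2(CPM + 0.5) (y axis) against coding length in bases (x axis) for 30 small subunit genes, each a point. The SD reaches 0.89 for Rps29 at 168 bases, and Rps27l is the exception among the short genes at 0.19.

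Summed over the family, the 35 genes took 1.47 ± 0.12% of all counts in APPko libraries (range 1.35 to 1.66, SD, n = 8) and 1.11 ± 0.23% in wildtype libraries (range 0.847 to 1.44, n = 6). The APPko and wildtype ranges overlapped through wildtype library 1. Without libraries 2 and 3 the wildtype share was 1.23 ± 0.14% (SD, n = 4). In bulk tissue, more of a cell type rich in these mRNAs and more mRNA per cell cannot be told apart. Large subunit genes took 1.92 ± 0.14% in APPko and 1.46 ± 0.25% in wildtype, so that the ratio of small to large subunit counts was 0.767 ± 0.015 in APPko and 0.752 ± 0.030 in wildtype. Of 49 tested large subunit genes 9 were higher and none lower (18 higher with DESeq2, 1 with edgeR without wildtype libraries 2 and 3), with a median log2 change of 0.29. Rpl18 had 239 ± 21.6 CPM in APPko and 156 ± 27.9 CPM in wildtype (log2 change 0.62, edgeR adjusted p = 0.018), and Rpl10 had 423 ± 35.0 CPM in APPko and 289 ± 44.0 CPM in wildtype (log2 change 0.55, edgeR adjusted p = 0.021). The 29 tested genes of the mitochondrial small subunit (Mrps) had a median of 0.14 and none passed (9 at an unadjusted p under 0.05, 3 higher with DESeq2). Without wildtype libraries 2 and 3 their median was 0.22, with none passing and 13 at an unadjusted p under 0.05. In that fit the medians were 0.23 for the small and 0.25 for the large cytosolic subunit genes.

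Levels of different members were compared per kilobase of exon. By the union of all annotated exons, Rps15 and Rps27 had the highest means over both genotypes. Rps15 had 723 CPM per kilobase in APPko and 540 in wildtype, and Rps27 had 696 in APPko and 545 in wildtype. Before division by length, Rps27 ranged from 375 to 980 CPM in APPko libraries and from 292 to 948 CPM in wildtype libraries. The order of these close means is therefore uncertain in both genotypes. Over the core proteins other than Rps10 the mean over both genotypes ran between 40.7 for Rps15a and 645 for Rps15. This order depends on the annotated length. By the main transcript alone, Rps14 (1999 CPM per kilobase) and Rps27 (1909) were highest, and Rps15a's main transcript is annotated with 5130 bases for a coding sequence of 390.

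The lowest tested level belonged to Rps10, a head protein that is ubiquitinated when ribosomes stall. Its row held 17 to 70 counts per library, with 1.16, 1.51 and 2.54 CPM in APPko libraries and 0.915, 1.15 and 2.69 CPM in wildtype libraries (log2 change 0.29, edgeR adjusted p = 0.60). In the deposited annotation a second protein-coding gene on the same strand, Gm49804, shares 475 of Rps10's exon bases. Of its 9 exons 5 lie on exons of Rps10, and it had 0 counts in all 14 libraries. Rows named as Rps10 copies (-ps) held 713% of Rps10's own counts. The row is therefore uncertain as a measure of Rps10 mRNA.

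Related and duplicated members showed the limits of read assignment. Rps27l, a p53-responsive relative of Rps27 with 78.2% of identical coding bases, had 228, 268 and 336 CPM in APPko libraries and 188, 226 and 292 CPM in wildtype libraries (log2 change 0.25, edgeR adjusted p = 0.21). The single-exon Rps27rt is identical to Rps27 over all 252 coding bases. It had 4.44, 6.10 and 10.6 CPM in APPko libraries and 2.12, 4.60 and 9.09 CPM in wildtype libraries (log2 change 0.55, edgeR adjusted p = 0.28), while Rps27 had 375, 697 and 980 CPM in APPko libraries and 292, 569 and 948 CPM in wildtype libraries. Reads from their coding parts cannot be told apart, and both genes followed the same libraries. Rps23rg1, a retrogene of Rps23, had at most 0.495 CPM in an APPko library and 0.484 CPM in a wildtype library. Rps19bp1 encodes a protein that binds Rps19 rather than a ribosomal protein, and had 49.5, 67.2 and 71.0 CPM in APPko libraries and 51.5, 56.3 and 75.3 CPM in wildtype libraries (log2 change 0.091, edgeR adjusted p = 0.70).

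Processed copies with -ps names exist for 23 of the members. Their 120 rows together held 2.21% of the members' counts. All 121 rows with such Rps names and -ps, Rps6k left out, held 0.033% of all counts in APPko libraries and 0.023% in wildtype libraries. Rps12 had the most copies, 24, and Rps19's 14 copies held 12.2% of Rps19's counts. Adding each member's copies to it called the same 6 genes. Exons of 14 members overlap those of another annotated gene, 8 of them a gene on the opposite strand, such as Trappc4 at Rps25 and Vps52 at Rps18. The sources used here do not give whether strand was used in counting, so such reads cannot be told apart.

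In the genome the members are spread over 15 chromosomes, yet 9 of the 35 (25.7%) lie on chromosome 7, which holds 8.02% of the tested protein-coding genes. Among them are Rps19 (chr7:24884371-24889806, 6 exons in its main transcript), Rps16 (chr7:28350652-28353155, 5 exons) and Rps13 (chr7:116331505-116334195, 6 exons, minus strand). Small nucleolar RNAs, which guide modification of ribosomal RNA, are often hosted in ribosomal protein introns. Here 19 snoRNA genes lay inside 10 of the members (28.6%), against 1.53% of tested protein-coding genes with one inside. Of the 6 genes that were higher in APPko, Rps13 and Rps16 held 1 each.

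Lists of genes that act with the small subunit were set beside it, none of them tested as a set. Over all tested genes, 20.4% had an unadjusted p under 0.05. Of 56 tested small subunit assembly factors none passed, and their median log2 change was -0.036. By unadjusted p under 0.05 there were 10, and DESeq2 called 2 higher and 2 lower. The nearest were Nol6, an early pre-ribosome factor, with 29.9 ± 2.78 CPM in APPko and 20.7 ± 5.61 CPM in wildtype (edgeR adjusted p = 0.058), and the GTPase Bms1, with 24.5 ± 2.09 CPM in APPko and 31.5 ± 5.71 CPM in wildtype (edgeR adjusted p = 0.085).

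Among 9 partners outside the Rps symbols none passed with edgeR (4 at an unadjusted p under 0.05; 3 higher and 1 lower with DESeq2). Fau, whose product is cut into a ubiquitin-like protein and the small subunit protein eS30, had 498 ± 43.3 CPM in APPko and 401 ± 31.0 CPM in wildtype (log2 change 0.31, edgeR adjusted p = 0.071). Ccdc124, a factor of idle ribosomes, had 120 ± 15.6 CPM in APPko and 86.7 ± 20.7 CPM in wildtype (edgeR adjusted p = 0.071). Of 14 subunits of eIF3, the initiation factor that holds the small subunit, 1 was higher and none lower (2 higher and 1 lower with DESeq2, none with edgeR without wildtype libraries 2 and 3, where 4 had an unadjusted p under 0.05). This was Eif3k, with 219 ± 26.4 CPM in APPko and 151 ± 35.6 CPM in wildtype (log2 change 0.53, edgeR adjusted p = 0.044). The next, Eif3g, had 125 ± 15.8 CPM in APPko and 95.4 ± 16.8 CPM in wildtype (edgeR adjusted p = 0.077). Of 18 other mRNAs with a TOP tract none passed (median log2 change 0.036; 3 at an unadjusted p under 0.05, 2 higher with DESeq2), with Eef1d nearest at 80.9 ± 8.84 CPM in APPko and 63.9 ± 6.39 CPM in wildtype (edgeR adjusted p = 0.062).

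Of the mRNAs of 22 regulators of mTORC1 and of TOP mRNAs, 1 was higher and 2 were lower (9 at an unadjusted p under 0.05). DESeq2 called 1 higher and 4 lower, and voom 1 higher and 1 lower. Growth signalling and translation were not measured. Pdcd4, a repressor of the helicase eIF4A that S6 kinase marks for breakdown, had 159 ± 26.8 CPM in APPko and 318 ± 108 CPM in wildtype (log2 change -0.998 ± 0.17 SE, edgeR adjusted p = 0.016). Eif4ebp1, the inhibitor of the cap-binding protein eIF4E, had 37.0 ± 7.98 CPM in APPko and 20.2 ± 5.19 CPM in wildtype (log2 change 0.87 ± 0.18 SE, edgeR adjusted p = 0.025). Tial1, an RNA-binding protein that can hold TOP mRNAs, had 172 ± 14.9 CPM in APPko and 301 ± 136 CPM in wildtype (log2 change -0.81, edgeR adjusted p = 0.036). None of these 3 passed without wildtype libraries 2 and 3, where 4 of the 22 had an unadjusted p under 0.05.

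The 10 S6 kinases and relatives gave no call with edgeR, with Rps6ka5 nearest at 25.8 ± 4.60 CPM in APPko and 34.7 ± 7.34 CPM in wildtype (edgeR adjusted p = 0.091; 5 at an unadjusted p under 0.05; 1 higher and 1 lower with DESeq2). Among 20 genes of RNA polymerase I, which makes the precursor of ribosomal RNA, none passed with edgeR (6 at an unadjusted p under 0.05; 4 higher and 1 lower with DESeq2). Polr1d, a subunit shared with RNA polymerase III, had 86.0 ± 9.73 CPM in APPko and 67.1 ± 7.62 CPM in wildtype (log2 change 0.36, edgeR adjusted p = 0.058). None passed either among 17 ubiquitin ligases and rescue factors of the small subunit (5 at an unadjusted p under 0.05; 1 higher with DESeq2), where Rnf10, a ligase that marks small subunit proteins, had 68.8 ± 6.05 CPM in APPko and 49.0 ± 14.6 CPM in wildtype (log2 change 0.49, edgeR adjusted p = 0.085). The 5 ubiquitin genes, which include Rps27a and Fau, had no call either (3 at an unadjusted p under 0.05; 2 higher and 1 lower with DESeq2). Of 20 p53 targets 1 was lower, Sesn1, an inhibitor of mTORC1, with 71.0 ± 10.6 CPM in APPko and 99.1 ± 18.3 CPM in wildtype (log2 change -0.48, edgeR adjusted p = 0.045). DESeq2 called 1 lower too, while voom and edgeR without wildtype libraries 2 and 3 called none, with 1 and 2 at an unadjusted p under 0.05.

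Markers of other cell types were measured beside the members. Of 9 microglial markers 2 were higher and none lower (3 higher with DESeq2, none with edgeR without wildtype libraries 2 and 3, where 3 had an unadjusted p under 0.05). They were Tyrobp, a signalling adaptor, with 115 ± 19.7 CPM in APPko and 54.7 ± 27.8 CPM in wildtype (edgeR adjusted p = 0.028), and C1qb, a complement subunit, with 233 ± 45.0 CPM in APPko and 123 ± 63.6 CPM in wildtype (edgeR adjusted p = 0.047). The summed microglial markers ranged between 568 and 1002 CPM in APPko libraries and between 406 and 792 CPM in wildtype libraries, with a median log2 change of 0.081. The part of the microglial share in the ribosomal protein levels was not tested. Dock10, of the granule cell list, had 77.6 ± 10.1 CPM in APPko and 103 ± 14.6 CPM in wildtype (log2 change -0.40, edgeR adjusted p = 0.053). Calb1, of the same list, had 277 ± 89.6 CPM in APPko and 454 ± 184 CPM in wildtype (edgeR adjusted p = 0.14). The median log2 change of the 7 granule cell markers was -0.075, and 1 of the 7 was positive. No marker of granule cells, mossy cells and CA fields, astrocytes, oligodendrocytes, their precursors, vessels or fibroblasts passed with edgeR (10 of these 36 had an unadjusted p under 0.05, and DESeq2 called 2 higher and 2 lower).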

How the data were processed

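Libraries were made with a low-input kit (12 cDNA and 10 library PCR cycles, 151 bp paired reads), per the labels' protocols. The authors deposited raw counts per gene, for which the submitters' processing notes name the build GRCm38 and the tools featureCounts 2.0.1, STAR 2.7.8a and cutadapt 3.5. How strand, multiply mapped reads and duplicates were handled was not given in these sources. Without molecular identifiers, PCR copies count as reads.

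From the deposited counts, genotypes were compared with edgeR 4.0.16 (robust quasi-likelihood, TMM scaling, filterByExpr, Benjamini-Hochberg over 22150 genes, threshold 0.05) in R 4.3.3. CPM are TMM-scaled. Alternatives used DESeq2 1.42.0, voom of limma 3.58.1, other scalings and filters, trends of GC content and length, the header letter, and left-out libraries. A few members are counted but not reported by name here. The members and gene lists were chosen with earlier results of these data known. Named are the members past the threshold, the highest and lowest per length, relatives of other members, the smallest change, the short variable genes and Rps3, Rps6 and Rps14 (all chosen after seeing their values), genes with a library far from its group and, in related lists, 1 or 2 of the 2 genes of smallest p and any other called gene of a count of 3 or fewer. Gene models, overlaps and positions came from the deposited GRCm38 annotation, coding identity from GENCODE transcripts. All 43 pairs of libraries within a genotype differed beyond counting noise.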

Additional observations from a re-analysis of the deposited data

Results flagged for a closer look

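In 68 groups (34 genes in each genotype), 6 values lay farther from the rest of their group than Dixon's 95% value allows. For independent groups, chance gives about 1 such flag in 20 groups, or 3.4 here. The genes share the same libraries, so these groups were not independent and the 2 counts cannot be compared as a test. APPko library 8 was apart for Rps4x, with 627 CPM beside 507 CPM in the next APPko library, and for Rps19bp1, with 49.5 CPM beside 61.0 CPM in the next. Wildtype library 1 was apart for 3 genes. There Rps24 had 609 CPM beside 408 CPM in the next wildtype library, Rps25 had 562 CPM beside 456 CPM, and Rps3a1 had 560 CPM beside 448 CPM. For the sparse Rps10 row, wildtype library 6 had 2.69 CPM beside 1.58 CPM in the next.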

How the results depend on the processing

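With all libraries, 521 genes and 6 members passed. DESeq2 called 1801 genes and 16 members. Without the filter on low counts 11 members passed. Without wildtype libraries 2 and 3, 35 genes and 0 members passed, and without these and APPko library 8 (chosen after seeing the data) 64 genes and 0 members. With the length trend removed 346 genes and 2 members (Rps18 and Rps19) passed, with a transcript length trend (chosen after seeing the data) 1 member, Rps19, and with the GC trend 223 genes and 4 members. The header letter as a covariate gave 1446 genes and 8 members, and the f libraries alone 3672 genes and 7 members. The f wildtype libraries were 1, 2 and 3, so libraries 2 and 3 weigh more in that last fit. Leaving out 1 library at a time gave 38 to 1436 genes and 0 to 16 members: none without wildtype 3 or APPko 2, 5 or 7, 1 without wildtype 2 or APPko 1, 4 or 6, 3 without APPko 8 and 16 without wildtype 1. The difference in the members' share of counts stayed at 0.315 to 0.433 percentage points over these, and at 0.238 without wildtype libraries 2 and 3. Library totals in place of TMM turned the split of calls to 236 higher and 119 lower, with the median of all genes at 0.079. Rps19 was called under 16 of 19 other settings and 10 of 14 left-out libraries. The replicate block, used as an alternative, left 21 genes and 0 members (19 at an unadjusted p under 0.05). Deviations of same-numbered libraries from their group means had correlations of -0.34 to 0.19, with 3 of 6 closest to their own number. So few correlations cannot decide whether same-numbered libraries were paired. A term for genotype by header letter, with a single m library in APPko, was called for 411 genes and 0 members (8 at an unadjusted p under 0.05). Signs turned for Rps12 (-0.15 without wildtype 2 and 3, -0.12 also without APPko 8, -0.089 with the letter as covariate, -0.084 in f libraries, -0.062 with the length and -0.089 with the transcript length trend removed, and -0.078 to 0.28 leaving out 1 library), Rps19bp1 (-0.18 with the GC and -0.0048 with the transcript length trend removed), Rps4x (-0.0043 in f libraries), and Rps29 (-0.038) and Rps21 (-0.034) without wildtype 2 and 3. The cause was not tested. Intervals cover counting and library spread only, and Rps10 and Rps23rg1 were too shallow to read.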
